A study of Mus musculus with 7 samples.

Results

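The genes described here are 8 that carry dietary sugar into the epithelium of the small intestine. They are the brush border disaccharidase genes Sis, Lct, Mgam and Treh, the sugar transporter genes Slc5a1, Slc2a2 and Slc2a5, and the fructose kinase gene Khk. They were chosen by name, as the rows of the count table with these gene symbols, and make up 8 of the 38293 genes listed. All 8 passed the filter on low counts. RNA was sequenced from the small intestine of 7 mice, 4 on a diet with a normal amount of cystine (normal cys) and 3 on a diet low in cystine (low cys). The question put to these genes is whether their mRNA levels differed between the diets. Every mouse was a male C57BL/6NRJ animal and was housed individually. The study's methods give an age of 8 weeks and no separate age at tissue collection. All received the AIN93G high-fat control diet for 1 week and then either the normal or the low cystine version of that high-fat, low-calcium diet for 2 weeks, with alanine in place of the L-cystine taken out. The tissue was scraped from the last part of the small intestine after a short fast, without its most proximal piece, which went to histology, so it holds epithelium and lamina propria with the muscle layer left behind. Each mouse gave 1 library, and the libraries are called normal cys 1 to 4 and low cys 1 to 3, numbers that only name them. The p-values below therefore judge the difference between the diets against the spread between mice.

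Starch, sucrose, lactose and trehalose cannot cross the gut wall and are first split into single sugars by enzymes that sit in the apical membrane of enterocytes, the absorptive cells of the villus. Sucrase-isomaltase (Sis) and maltase-glucoamylase (Mgam) release glucose from starch fragments, Sis also splits sucrose into glucose and fructose, lactase (Lct) splits lactose and trehalase (Treh) splits trehalose. Glucose and galactose then enter with sodium through SGLT1 (Slc5a1), fructose enters through GLUT5 (Slc2a5), sugars leave the cell on the blood side through GLUT2 (Slc2a2), and ketohexokinase (Khk) phosphorylates fructose inside the cell. In the mouse gut most of these genes are known to be used more in the proximal than in the distal small intestine and more on the villus than in the crypt, and lactase is known to decline after weaning.

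In GRCm38, the build of the count table, Sis (ENSMUSG00000027790) lies at chr3:72888557-72967863 on the minus strand, Lct (ENSMUSG00000026354) at chr1:128284756-128328318 on the minus strand, and Mgam (ENSMUSG00000068587) at chr6:40628831-40769123 on the plus strand. Treh (ENSMUSG00000032098) lies at chr9:44673233-44686305, Slc5a1 (ENSMUSG00000011034) at chr5:33104219-33162872 and Slc2a2 (ENSMUSG00000027690) at chr3:28697903-28728356, all on the plus strand. Slc2a5 (ENSMUSG00000028976) at chr4:150119283-150144169 and Khk (ENSMUSG00000029162) at chr5:30921556-30931246 are on the plus strand too. Their exons as counted add up to between 1670 bases for Khk and 6488 bases for Mgam. Treh shares 2 exonic bases with Phldb1 on the opposite strand, and no other of the 8 shares an exonic base with another gene of the table. Of the 50-base stretches of their transcripts, 1.45% of those of Treh, 0.295% of those of Mgam and 0.135% of those of Sis also occur in transcripts of another gene, and none of those of the other 5 genes. How the counting treated reads that match more than 1 gene is not given in the sources used here.

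The 250 bases upstream of each RefSeq start site (GRCm38.p6), where all 8 genes had an entry, were searched on both strands for short motifs of factors known from intestinal promoters. The RefSeq start is not always that of the count table. For Slc2a5 the window ended at 150119343, inside the gene as counted from 150119283, and for Khk at 30921558, with counting from 30921556. Printed here are Sis and Lct for the classical HNF1, CDX and GATA letters, Treh for its HNF4 letters, and Slc2a5 because none of the motifs occurred in it. The sequences run 5′ to 3′ along each gene's own strand, and capitals mark the matches:
Sis, chr3:72967864-72968113, minus strand: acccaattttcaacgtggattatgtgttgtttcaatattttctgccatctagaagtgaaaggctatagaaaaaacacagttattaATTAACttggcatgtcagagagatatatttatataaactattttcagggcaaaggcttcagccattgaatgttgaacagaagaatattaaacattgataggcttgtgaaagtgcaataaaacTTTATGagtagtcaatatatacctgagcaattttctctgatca
Lct, chr1:128328319-128328568, minus strand: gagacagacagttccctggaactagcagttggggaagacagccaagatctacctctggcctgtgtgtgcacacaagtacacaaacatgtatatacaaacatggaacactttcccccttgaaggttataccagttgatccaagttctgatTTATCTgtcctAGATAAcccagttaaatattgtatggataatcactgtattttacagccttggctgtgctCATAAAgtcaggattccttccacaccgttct
Treh, chr9:44672983-44673232, plus strand: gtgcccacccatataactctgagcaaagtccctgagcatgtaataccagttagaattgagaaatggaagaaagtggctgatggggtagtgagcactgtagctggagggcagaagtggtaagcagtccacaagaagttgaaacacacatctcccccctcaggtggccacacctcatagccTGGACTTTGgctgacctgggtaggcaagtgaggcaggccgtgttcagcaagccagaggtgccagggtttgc
Slc2a5, chr4:150119094-150119343, plus strand: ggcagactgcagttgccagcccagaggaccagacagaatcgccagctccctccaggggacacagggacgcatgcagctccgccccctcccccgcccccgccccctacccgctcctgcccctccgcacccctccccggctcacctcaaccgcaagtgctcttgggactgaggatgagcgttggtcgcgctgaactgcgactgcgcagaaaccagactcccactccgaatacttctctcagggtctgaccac

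The HNF1 half-site (GTTAAT) occurred upstream of Sis and Khk and in 6.43% of all 32851 RefSeq promoters of that length. The CDX letters (TTTATG) occurred upstream of Sis and Lct and in 10.8% of all promoters, in Sis 43 to 38 bases and in Lct 31 to 26 bases before the start. The GATA letters (AGATAA or TGATAA) occurred 2 times each upstream of Lct and Mgam and 1 time upstream of Slc2a2, against 16.6% of all promoters. These are matches of letters and not measured sites. The HNF4 letters (CAAAGTCCA), read on the minus strand, occurred only upstream of Treh among the 8 and in 0.384% of all promoters. The E-box CACGTG, which ChREBP-type factors can bind as part of a longer element, occurred upstream of Mgam, Slc5a1 and Khk and in 6.02% of all promoters. No searched motifs overlapped in a printed sequence. Base composition also separated the genes, from 31.6% G and C upstream of Sis, lower than in all but 2.16% of promoters, to 66.4% for Slc2a5 and 67.2% for Khk, with 52.4% as the median of all promoters.

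The libraries held between 19712355 and 22412703 counts on normal cys and between 14888760 and 21942518 on low cys, and no pair of the 7 was alike within sampling noise. Of the 14869 genes that passed the filter, 0% passed an adjusted p of 0.05 between the diets in edgeR's quasi-likelihood test, where the smallest adjusted p was 0.291. DESeq2 called 16 genes and limma-voom 0, none of them among the 8. At an unadjusted p under 0.05 edgeR had 817 genes, 396 higher and 421 lower on low cys. That split depended on the scaling, since with total counts only it was 911 higher and 126 lower. The lists of marker genes used below showed enterocyte genes at high levels in every library and the ileal genes Fabp6 and Clec2h at 2848 to 7454 and 2235 to 3824 CPM, next to proximal genes such as Apoa4 at 653 to 6720 CPM. CPM are counts scaled to a library size common to all mice by the TMM method.

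Together the 8 genes took between 0.606% and 0.935% of all counts in a library. Sis, Mgam and Slc5a1 supplied 82.2% to 92.4% of that. The 2 ends of the range were normal cys 1 and normal cys 3, so both lie within 1 diet. On a scale that divides by exonic length (RPKM, which is CPM per kilobase of exon), the median level over the 7 libraries was 404 for Slc5a1, 364 for Sis and 318 for Mgam. These 3 genes overlapped widely, with ranges of 325 to 555, 251 to 587 and 297 to 409 RPKM, and cannot be put in an order beyond their spread. Khk followed with a median of 119 RPKM and Treh with 75.1 RPKM. Lct at 36.6 RPKM and Slc2a5 at 29.8 RPKM overlapped each other, and Lct reached from 14 to 140 RPKM. Slc2a2 was lowest with a median of 9.77 RPKM and a range of 3.54 to 46.8 RPKM.

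**Figure D1:**
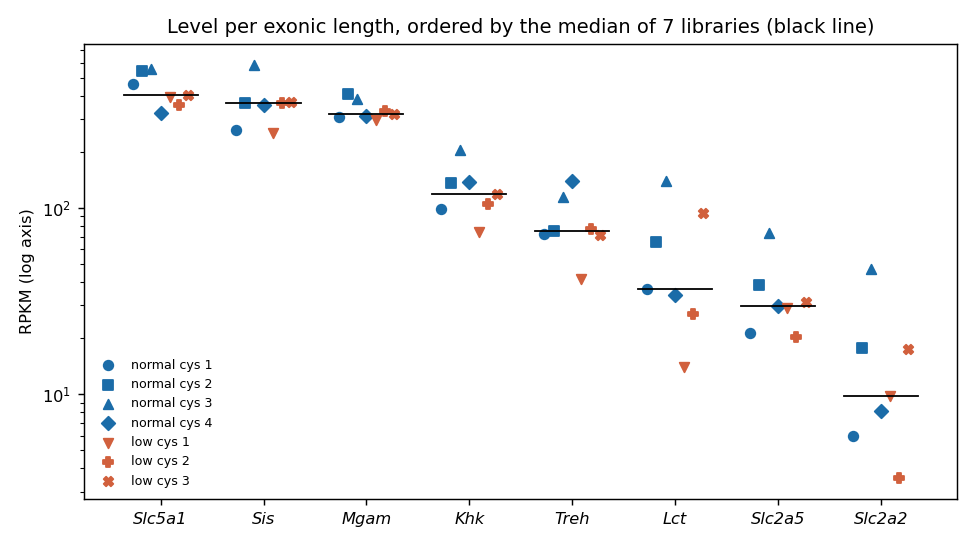
Level of each gene in RPKM on a log axis, with 1 point per library, normal cys in blue, low cys in orange and the median of the 7 libraries as a black line. Slc5a1, Sis and Mgam lie together at the top, and Slc2a2 lies lowest with the widest spread.

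Sis and Mgam make enzymes with overlapping substrates, and their RPKM ratio stayed between 0.846 and 1.54 over the 7 mice. The ratio of Sis to Treh ran from 2.56 to 6.07 and that of Sis to Lct from 3.96 to 18. Among the transporters, the apical glucose carrier Slc5a1 exceeded the apical fructose carrier Slc2a5 by 7.52-fold to 21.6-fold. Slc5a1 exceeded Slc2a2 by between 11.9-fold in normal cys 3 and 100.9-fold in low cys 2. Slc2a5 and Khk act in succession on fructose, and their RPKM ratio lay between 0.191 and 0.392.

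The mice differed far more in some of these genes than in others, whatever the diet. The highest library exceeded the lowest 13.2-fold for Slc2a2 and 10-fold for Lct, and 1.38-fold for Mgam and 1.71-fold for Slc5a1. In between were Slc2a5 at 3.66-fold, Treh at 3.37-fold, Khk at 2.76-fold and Sis at 2.34-fold. Within a diet, the SD of log2 CPM was 1.26 for Slc2a2 and 1.15 for Lct, above 99.7% and 99.4% of the 8626 genes with a mean of at least 10 CPM. The same SD was 0.17 for Mgam, above 31.6% of genes, and the median gene had 0.22. So 7 of the 8 genes varied more between mice of a diet than the median gene, and Mgam varied less. Normal cys 3 held the highest value of 6 of the 8 genes. The exceptions were Mgam, highest in normal cys 2, and Treh, highest in normal cys 4. Low cys 1 held the lowest value of Sis, Lct, Mgam, Treh and Khk.

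**Figure D2:**
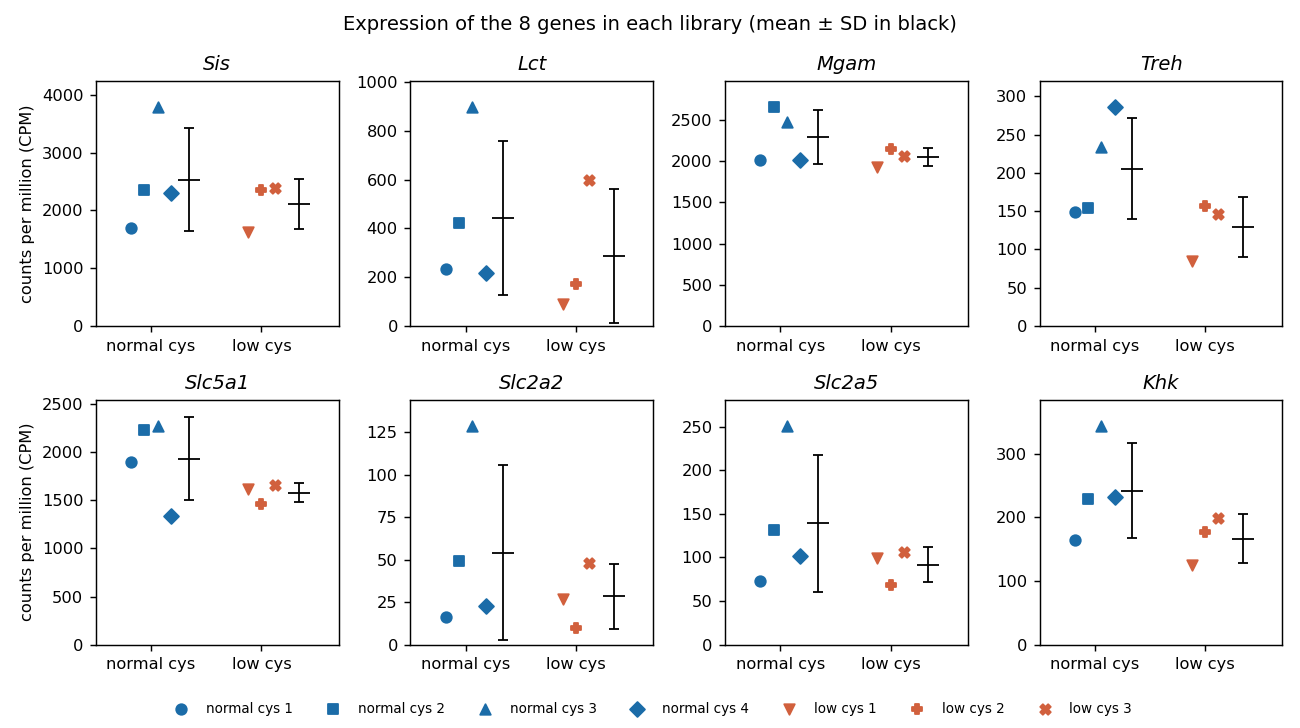
CPM of each gene in each library on linear axes from 0, with 1 symbol per mouse, normal cys in blue, low cys in orange, and the mean ± SD of each diet in black. The diets overlap in all 8 panels, and normal cys 3 (upright triangle) is the highest point in 6 of them.

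All 8 genes had a lower estimate on low cys than on normal cys with the TMM scaling, and none passed the test after adjustment over all genes. With library sizes set by brush border structure genes instead, 5 of the 8 estimates were negative. A negative estimate was found for 48.8% of all genes tested. The diets did not overlap for 0 of the 8 genes, against 6.83% of all genes. At an unadjusted p under 0.05 stood 1 of the 8, Treh, against 5.49% of all genes and 2.83% of all genes that were lower on low cys. The median log2 fold change of the 8 was -0.57, and that of all genes 0.01. Without normal cys 3 the median of the 8 was -0.14, with 7 of 8 estimates negative, and without low cys 1 it was -0.33. With 4 mice against 3, an exact permutation test has 35 splits and cannot give a two-sided p below 0.0286, and for the 8 genes it gave 0.171 to 0.486. In scraped tissue, fewer cells of a type and less RNA per cell cannot be told apart.

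Sucrase-isomaltase, the most used disaccharidase gene together with Mgam, stood at 1694, 2344, 3783 and 2297 CPM in normal cys 1 to 4 and at 1619, 2351 and 2383 CPM in low cys 1 to 3. Normal cys 3 was well above the others, and 2 low cys mice lay above normal cys 1, 2 and 4. The means were 2529 ± 887 CPM (SD, n = 4) on normal cys and 2118 ± 432 CPM (SD, n = 3) on low cys. For Sis the log2 fold change was -0.26 (SE 0.28, 95% interval -0.89 to 0.37) with an edgeR adjusted p of 0.834. Without normal cys 3 the log2 fold change of Sis was 0.00.

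Maltase-glucoamylase was the steadiest of the 8. Mgam stood at 2007, 2652, 2479 and 2015 CPM on normal cys and at 1928, 2147 and 2063 CPM on low cys. Low cys 1 was lowest of all, and low cys 2 and 3 lay between normal cys 1 and 4 below them and normal cys 2 and 3 above them. Mean levels were 2288 ± 328 CPM (SD, n = 4) and 2046 ± 110 CPM (SD, n = 3), a log2 fold change of -0.16 (SE 0.17). The 95% interval of Mgam ran from -0.54 to 0.22, with an edgeR adjusted p of 0.828.

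Lactase was measured at 234.7, 422.5, 896.8 and 217.2 CPM on normal cys and at 89.6, 173.2 and 599 CPM on low cys. Both diets held a mouse far above its diet mates, normal cys 3 and low cys 3, and low cys 1 was lowest. Lct averaged 443 ± 317 CPM (SD, n = 4) and 287 ± 273 CPM (SD, n = 3). Its log2 fold change was -0.62 (SE 0.71, 95% interval -2.25 to 1.00), with an edgeR adjusted p of 0.836. Leaving out 1 mouse moved this value in either direction. It was -0.02 without normal cys 3, -0.18 without low cys 1 and -1.76 without low cys 3, the last at an unadjusted edgeR p of 0.0276.

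Trehalase had the smallest unadjusted p of the 8. Treh stood at 148.9, 153.9, 233.8 and 285.8 CPM on normal cys and at 84.9, 156.9 and 147 CPM on low cys. Low cys 2 was above normal cys 1 and 2, so the diets overlapped, and low cys 1 was far below all other mice. The means of 205.6 ± 66.1 CPM (SD, n = 4) and 129.6 ± 39.1 CPM (SD, n = 3) gave a log2 fold change of -0.67 (SE 0.29, 95% interval -1.32 to -0.01). The unadjusted edgeR p was 0.0472, the adjusted p 0.794 and the exact permutation p 0.229. Without low cys 1 the log2 fold change of Treh was -0.42 at an unadjusted edgeR p of 0.169, and without normal cys 4 the p was 0.119.

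Slc5a1, the sodium-coupled glucose transporter, had 1902, 2229, 2278 and 1335 CPM on normal cys and 1620, 1467 and 1661 CPM on low cys. All 3 low cys mice fell between normal cys 4, the lowest of all, and the other normal cys mice. Averages of 1936 ± 434 CPM (SD, n = 4) and 1583 ± 102 CPM (SD, n = 3) corresponded to a log2 fold change of -0.29 (SE 0.21, 95% interval -0.76 to 0.18). The edgeR adjusted p of Slc5a1 was 0.798. Without normal cys 4 its log2 fold change was -0.43 at an unadjusted edgeR p of 0.028.

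The fructose transporter gene Slc2a5 had 72.8, 131.2, 250.9 and 101.2 CPM on normal cys and 99.3, 68.6 and 106.1 CPM on low cys. Apart from normal cys 3 the mice of both diets were intermixed. Slc2a5 averaged 139 ± 78.3 CPM (SD, n = 4) and 91.4 ± 20 CPM (SD, n = 3), with a log2 fold change of -0.61 (SE 0.39, 95% interval -1.50 to 0.29) and an edgeR adjusted p of 0.794. Leaving out normal cys 3 brought the log2 fold change of Slc2a5 to -0.16, and leaving out normal cys 1 brought it to -0.82 at an unadjusted edgeR p of 0.037.

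The basolateral transporter gene Slc2a2 had the fewest counts of the 8, 156 to 2452 per library. Its levels were 16.4, 49.0, 128.9 and 22.5 CPM on normal cys and 26.9, 9.75 and 48.3 CPM on low cys. The order of the mice crossed the diets throughout, with normal cys 3 highest and low cys 2 lowest. Slc2a2 averaged 54.2 ± 51.8 CPM (SD, n = 4) and 28.3 ± 19.3 CPM (SD, n = 3). It had the largest estimate of the 8 and also the widest error, a log2 fold change of -0.94 (SE 0.76, 95% interval -2.69 to 0.82) with an edgeR adjusted p of 0.805. Without normal cys 3 that log2 fold change was -0.05.

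Khk, the first enzyme of fructose breakdown, had 163.8, 228.6, 343.6 and 231.4 CPM on normal cys and 124.4, 176.1 and 198.9 CPM on low cys. Normal cys 1 lay below 2 of the low cys mice, and the other normal cys mice lay above all 3. Mean levels were 241.8 ± 74.7 CPM (SD, n = 4) and 166.5 ± 38.2 CPM (SD, n = 3). The log2 fold change of Khk was -0.54 (SE 0.26, 95% interval -1.12 to 0.04), with an unadjusted edgeR p of 0.0641, an adjusted p of 0.794 and an exact permutation p of 0.171. Without normal cys 1 the unadjusted edgeR p of Khk was 0.0167, and without normal cys 3 it was 0.173.

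**Figure D3:**
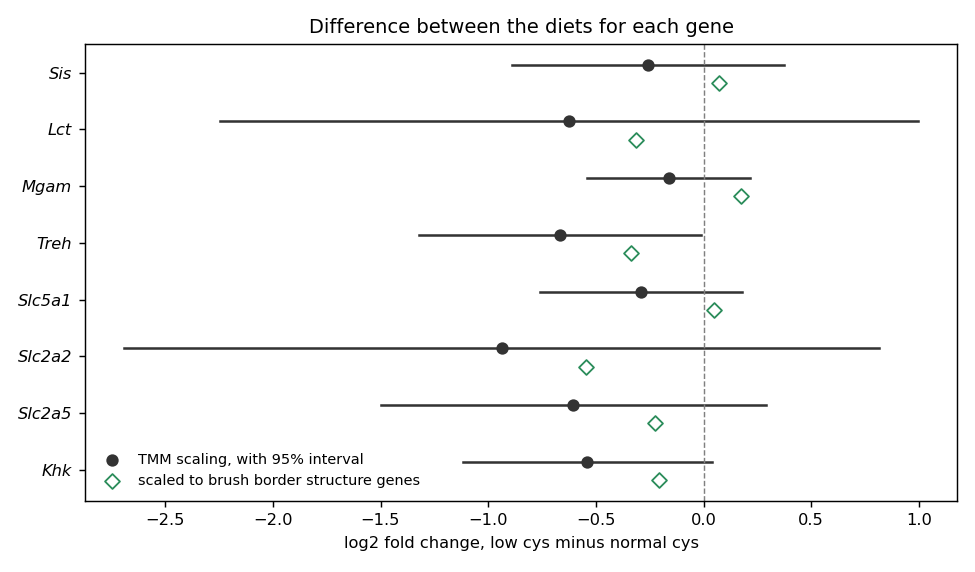
Log2 fold change of each gene, low cys minus normal cys, with TMM scaling and its 95% interval (black) and with library sizes set by brush border structure genes (green diamonds, no interval drawn). All black points lie below 0, only the interval of Treh stays below 0, and the diamonds of Sis, Mgam and Slc5a1 lie above 0.

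The sugar genes were next set against the brush border itself, since 17 of 20 genes for its structure, such as villin, ezrin and the protocadherin Cdhr2, also had negative estimates. Within each library, the mean log2 CPM of the 20 structure genes was subtracted from that of each sugar gene. On that relative scale the difference between the diets was 0.03 for Sis, 0.09 for Mgam and -0.02 for Slc5a1. It was -0.27 for Khk, -0.42 for Treh, -0.58 for Lct, -0.23 for Slc2a5 and -0.50 for Slc2a2. Exact permutation p-values of these relative differences ran from 0.257 for Treh to 0.971 for Slc5a1. A fit with the summed counts of the structure genes as library size moved the median of all genes from 0.01 to 0.36. Relative to that median, the log2 fold changes of Sis, Mgam and Slc5a1 in this fit were -0.28, -0.18 and -0.31, and that of Treh was -0.69. The median of the 8 minus the median of all genes was -0.58 with TMM and -0.57 both in this fit and with total counts only. With TMM it was -0.15 without normal cys 3 and -0.34 without low cys 1.

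The other genes of the brush border and of mature enterocytes had estimates on the same side. Of the brush border structure genes, 3 of 20 had an unadjusted p under 0.05, all lower on low cys, namely Ezr at -0.40, Espn at -0.37 and Cdhr2 at -0.43 on the log2 scale. Of the brush border peptidases, 12 of 12 estimates were negative with a median of -0.34, and 1, Ggt1 at -0.48, had an unadjusted p under 0.05. All 13 markers of mature enterocytes had negative estimates with a median of -0.41. The peptidase genes Anpep and Enpep are on both lists, so the 2 counts are not separate. A negative estimate was found for 48.8% of all genes tested. Of the 13 enterocyte markers, 2 had an unadjusted p under 0.05, Apoa1 at -0.79 (SE 0.29) and Krt20 at -0.41 (SE 0.18). Apoa1 and Krt20 were picked out after their values were seen. The 2 markers with the highest mean CPM were the fatty acid binding protein gene Fabp2 at -0.94 (SE 0.46) and the aminopeptidase gene Anpep at -0.27 (SE 0.19). Summed over its list, brush border structure made 18980 to 22760 CPM on normal cys and 13740 to 18860 CPM on low cys, which did not overlap. The sums of the brush border peptidases (28210 to 31610 and 20390 to 27770 CPM) did not overlap either. Nor did those of the glycolysis genes (5352 to 5773 and 4611 to 4994 CPM). Among single genes tested, 6.83% had no overlap in 1 direction or the other. The mature enterocyte sum was lowest in low cys 1, at 24240 CPM against 41460 to 65410 CPM in the other 6 mice, and low cys 1 was also the lowest mouse for 5 of the 8 sugar genes. The part of these cells in the values of the sugar genes was not tested.

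Markers of several other cell types had estimates on the other side. Estimates were positive for 12 of 13 crypt stem and proliferating cell markers, with a median of 0.61, and for 7 of 7 Paneth cell markers, with a median of 0.72, and none had an unadjusted p under 0.05. The summed levels of both lists overlapped between the diets, at 230 to 532 and 320 to 516 CPM for the crypt list and 703 to 4665 and 2819 to 5094 CPM for the Paneth list. Stroma markers had 8 of 8 positive estimates (Lum was below the filter) with a median of 0.92, and 3 had an unadjusted p under 0.05. Their summed level was low, 12.6 to 25.4 CPM on normal cys and 28.1 to 37.8 CPM on low cys. The diets did not overlap in it, as was so for 6.83% of single genes tested. Goblet cell markers, in whose list the symbol Clca1 is Clca3a1 of GENCODE M21, had 4 negative and 3 positive estimates with a median of -0.28, and leukocyte markers 5 and 5 with a median of 0.02. Among the leukocyte markers 1 had an unadjusted p under 0.05, Igj, the joining chain of antibodies, at 1.25 (SE 0.33), with 32.9 to 101.7 CPM on normal cys and 124.4 to 198.4 CPM on low cys. Enteroendocrine and tuft cell markers had 8 of 11 negative estimates with a median of -0.26, and 3 had an unadjusted p under 0.05, the hormone gene Gcg at 0.80 (SE 0.23) and, lower on low cys, the hormone gene Gip at -0.83 (SE 0.25) and the tuft cell gene Avil at -0.52 (SE 0.21). The 7 smooth muscle markers all had positive estimates with a median of 1.44, and 2 had an unadjusted p under 0.05, Des at 1.89 (SE 0.75) and Actg2 at 2.11 (SE 0.88). Their sums overlapped, at 181 to 224 CPM and 170 to 264 CPM, and were almost all Mylk (164 to 226 CPM), with the other 6 markers at 0.0956 to 10.8 CPM. Gcg, Gip, Avil, Des and Actg2 were picked out after their values were seen. The part of these cell types in the differences of the 8 genes was not tested.

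**Figure D4:**
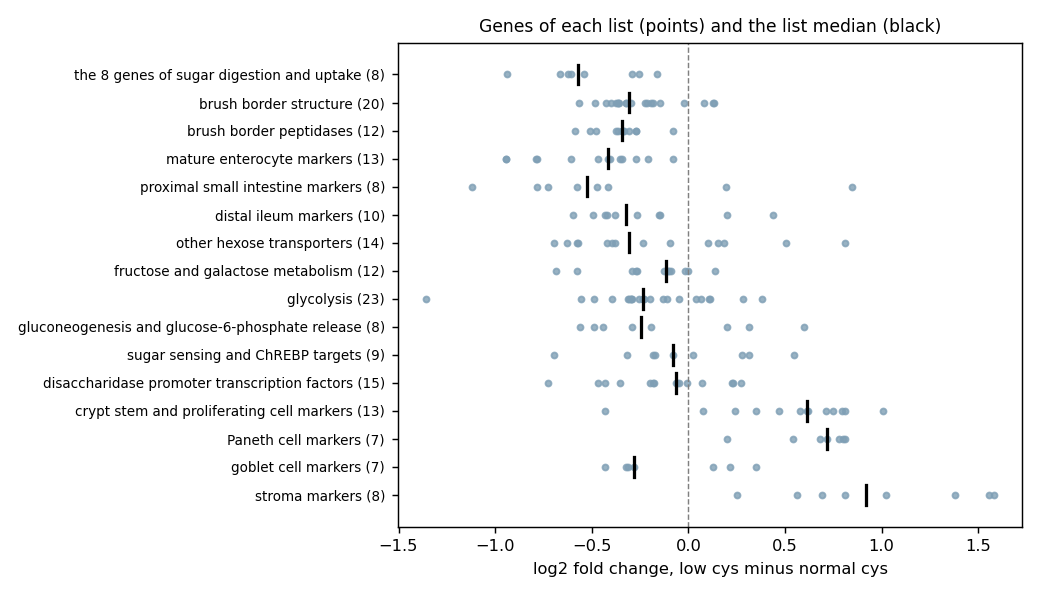
Log2 fold change, low cys minus normal cys, of every tested gene of each list drawn (points, number of genes in brackets) and the median of the list (black line). Smooth muscle, enteroendocrine and tuft cell, and leukocyte markers are not drawn. The medians of the sugar, brush border and enterocyte lists lie below 0, and those of crypt, Paneth and stroma markers above 0.

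Markers known from the proximal small intestine varied widely between the mice. They summed to 4294, 2408, 8872 and 7407 CPM on normal cys and 1079, 3028 and 6389 CPM on low cys, and most of each sum in normal cys 3 (6720 CPM) and low cys 1 (653 CPM) was Apoa4, which is also on the mature enterocyte list. The 2 mice with the most Lct, normal cys 3 and low cys 3, were the highest of their own diets in this sum, and low cys 1, with the least Lct, was the lowest of all. Normal cys 4 did not follow in this sum, with the second highest sum, 5596 CPM of it Apoa4, and 217.2 CPM of Lct. Gata4, on the same list, was lowest in normal cys 4 at 5.78 CPM, with 6.61 and 13.3 CPM in low cys 1 and 2. In normal cys 1 to 3 and low cys 3, the mice with the most Lct, Gata4 had 28.2 to 38.6 CPM. Fabp1 and Ada of that list were instead second highest in normal cys 4, at 420.4 and 513.3 CPM. Gata4, Fabp1 and Ada were picked out after their values were seen. Distal ileum markers summed to 11640 to 19240 CPM on normal cys and 10340 to 13400 CPM on low cys. Of the 10 distal markers, 8 had negative estimates and 1, Muc3 at -0.49 (SE 0.19), had an unadjusted p under 0.05. Muc3 was also picked out after its values were seen. Of the 8 proximal markers tested, 6 had negative estimates and 0 had an unadjusted p under 0.05. Normal cys 4 was highest in the distal sum and second highest in the proximal sum, so the sums did not run opposite to each other. The part of position along the gut in the sugar gene values was not tested.

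Of the other hexose transporters, 14 of 18 passed the filter, with 9 negative and 5 positive estimates and a median of -0.31. Slc2a9, a urate and hexose carrier, stood at -0.42 (SE 0.19) and Slc2a13, a myo-inositol carrier with 3.21 to 8.24 CPM, at 0.81 (SE 0.25), each with an unadjusted p under 0.05. The genes of fructose and galactose metabolism downstream of Khk had 11 of 12 negative estimates with a median of -0.11. The gene listed as Pgm1, which GENCODE M21 calls Pgm2, was the only one of these 12 with an unadjusted p under 0.05, at -0.69 (SE 0.30). No gene in any of these lists passed the adjusted test.

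Glycolysis had 17 of 23 negative estimates with a median of -0.23. The pyruvate kinase gene Pklr at -0.31 (SE 0.13) and the regulatory kinase gene Pfkfb4 at -0.56 (SE 0.22) had an unadjusted p under 0.05. Of gluconeogenesis, 5 of 8 estimates were negative and the pyruvate carboxylase gene Pcx was the only gene with an unadjusted p under 0.05. Pcx had 37.6, 32.6, 37.3 and 38.2 CPM on normal cys and 20.4, 29.4 and 24.4 CPM on low cys. All low cys mice were below all normal cys mice, which none of the 8 sugar genes showed. Of all genes tested, 6.83% had no overlap in 1 direction or the other, and Pcx was named for its unadjusted p, so this order is no separate result. The log2 fold change of Pcx was -0.56 (SE 0.15), with an unadjusted edgeR p of 0.00424, an adjusted p of 0.794 and an exact permutation p of 0.0286, the smallest this design can give.

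The sugar sensor ChREBP (Mlxipl) and its target Txnip, which are known to follow glucose entering a cell, were at 0.02 (SE 0.24) and -0.08 (SE 0.19) on the log2 scale. None of the 9 sugar sensing genes that passed the filter had an unadjusted p under 0.05, and 5 of the 9 estimates were negative. Of the transcription factors known to act on disaccharidase promoters, 15 of 16 passed the filter, with 11 negative estimates and a median of -0.06. Among these 15 the GATA factor genes Gata5 at -0.43 (SE 0.15) and Gata6 at -0.35 (SE 0.13) had an unadjusted p under 0.05 and edgeR adjusted p of 0.794. Gata5 had 144.1, 154.8, 168.3 and 183.1 CPM on normal cys and 97.3, 126.9 and 137 CPM on low cys, and Gata6 49.4 to 60.8 CPM and 36.8 to 46.1 CPM. In both genes every low cys mouse lay below every normal cys mouse, and 6.83% of all genes tested had no overlap in 1 direction or the other. The exact permutation p was 0.0286 for each. Both genes were named for their unadjusted p, so the missing overlap and the permutation p are no separate result.

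The genes whose levels followed each sugar gene most closely over the 7 mice were then listed, by the root mean square difference of log2 CPM after each gene's own mean was subtracted. This is a description over 7 libraries that share their scaling, and nothing was tested. For Treh the closest were Cidec (0.04), a lipid droplet gene, and Alpi (0.08), the intestinal alkaline phosphatase of the brush border. Alpi had 722.5, 753.2, 1164 and 1254 CPM on normal cys and 389.1, 823.5 and 702 CPM on low cys, and the ratio of Alpi to Treh stayed between 4.39 and 5.25. Like Treh, Alpi was highest in normal cys 4 and lowest in low cys 1. For Sis the closest were the mitochondrial genes mt-Co2 (0.08) and mt-Co1 (0.09), subunits of cytochrome oxidase, and Gm13340 (0.10). The level of mt-Co2 was 3.59 to 4.26 times that of Sis in CPM, with normal cys 3 highest and low cys 1 lowest in both genes. Mgam was followed most closely by Uqcrh (0.03), a subunit of complex III.

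The same measure was larger for the most variable sugar genes, whose own root mean square spread around their mean was 1.05 for Lct and 1.13 for Slc2a2, against 0.16 for Mgam. The closest to Lct were Fam151a (0.34), Efr3b (0.37) and Nr1i3 (0.40), the last a nuclear receptor gene. Fam151a had 122.1, 152.2, 250.7 and 67.9 CPM on normal cys and 23.3, 65.9 and 151.1 CPM on low cys. Like Lct, it was highest in normal cys 3 and lowest in low cys 1. For Slc2a2 the closest were the metallothionein gene Mt1 (0.58), Slc2a5 (0.60) and Sema7a (0.62), so that 1 of the 3 was itself a sugar transporter of the set. Slc2a5 was closest to Pisd (0.24), Slc5a1 to Gm4853 (0.09), and Khk to 1110007C09Rik (0.06), which GENCODE M21 calls Card19, and Pdgfa (0.09). Within the 8, Sis and Khk were the closest pair (0.16), then Mgam and Slc5a1 (0.18), and Treh and Slc2a2 were the farthest apart (1.13).

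**Figure D5:**
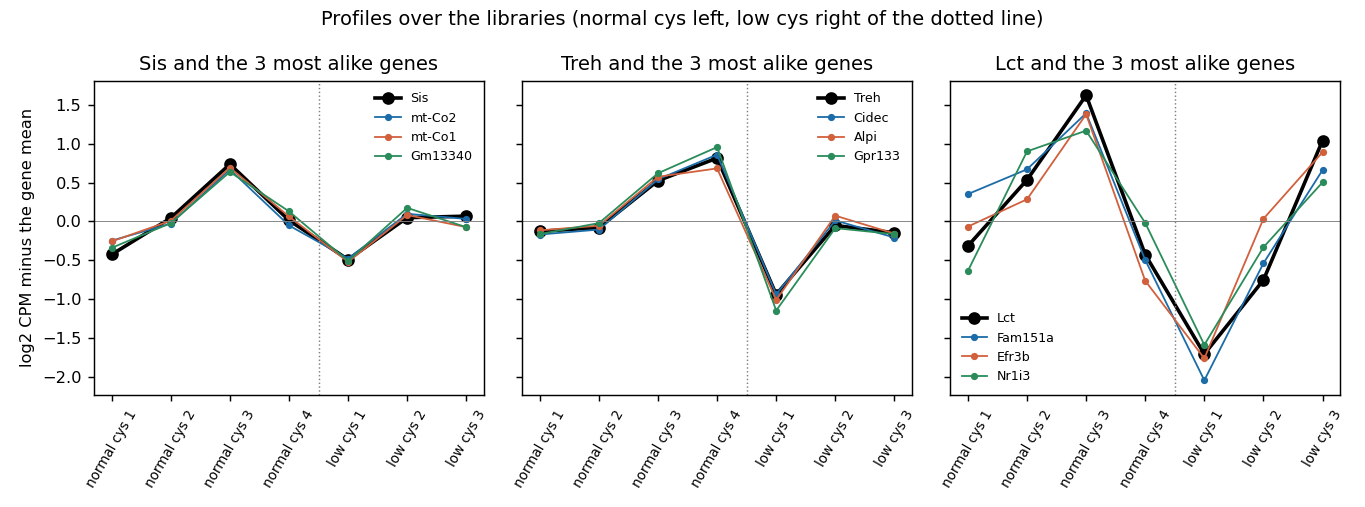
Log2 CPM minus the gene's mean over the 7 libraries for Sis, Treh and Lct (black) and the 3 genes most alike to each, with normal cys left and low cys right of the dotted line. The companions of Sis and Treh overlie them, while those of Lct leave wider gaps, and normal cys 3 is high and low cys 1 low in all 3 panels.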

How the data were processed

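RNA of 7 mouse small intestine samples was made into polyA libraries with a stranded kit. Per the study's methods and the submitters' processing notes, the authors trimmed reads with Trim Galore, removed ribosomal reads, aligned to GRCm38 with STAR and counted exons with featureCounts and Ensembl release 70. The table they deposited holds raw counts per gene, all whole numbers, and the strand setting of the counting is not given in the sources used here. Genes were kept by filterByExpr (minimum count 10, minimum total 15), scaled by TMM and tested with edgeR's robust quasi-likelihood test (version 4.0.16, R 4.3.3) on all 14869 genes, with Benjamini-Hochberg adjustment and no covariate. CPM and RPKM use TMM library sizes, and log2 CPM a prior count of 2. Permutation tests were exact and two-sided over mean log2 CPM. DESeq2 (1.42.0), limma-voom (limma 3.58.1), other scalings and filters and leaving out each mouse were the alternatives. Named are the 8 genes, and from each pathway list the genes at an unadjusted p under 0.05 or otherwise the 2 with the highest mean CPM, from each marker list the 2 with the highest mean CPM, and the 3 tested genes (mean of 10 CPM or more) most alike to each of the 8. Not every gene this rule gives is reported here. The members and lists were chosen with earlier results of these data known. Replicate numbers were given in accession order and pair no mice.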

Additional observations from a re-analysis of the deposited data

How the results depend on the processing

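The limits are 4 and 3 mice per diet, levels of Slc2a2 and Lct that vary about 10-fold between mice, and a scaling that moves all genes together. Over 15 alternatives, the estimates of Lct, Treh, Slc2a2, Slc2a5 and Khk stayed negative, and no adjusted p of the 8 passed 0.05. The number of genes past an adjusted p of 0.05, 0 in edgeR, was 16 with DESeq2 and 0 to 1 when each mouse was left out. Genes with an unadjusted p under 0.05 numbered 817, 2676 with brush border library sizes (2655 higher, 21 lower), and 258 (without low cys 1) to 1763 (without normal cys 1) when each mouse was left out. They numbered 403 without normal cys 3 and 522 without low cys 3. Of the 8 genes, 1 had an unadjusted p under 0.05, with 2 in DESeq2, 2 with no filter, 0 with total counts only, 0 with brush border library sizes, and 0 to 3 when each mouse was left out: 3 without normal cys 1, 2 without low cys 3, and 0 without normal cys 3 or low cys 1. Treh passed in 9 of the 15, with log2 fold changes from -0.80 to -0.34, and Khk in 4. With brush border library sizes the log2 fold changes turned to 0.07 for Sis, 0.17 for Mgam and 0.05 for Slc5a1, by construction of a scaling that moves all genes up, and that of Sis ran from -0.41 to 0.00 when each mouse was left out, 0.00 being without normal cys 3. On the scale relative to brush border genes, Slc5a1 turned to 0.14 against Vil1 alone and to 0.29 against mature enterocyte markers, where Slc2a5 turned to 0.08 and Khk to 0.04. The cause of the other changes was not tested.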
